A study of Homo sapiens with 18 samples.

Results

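HSPA5, HSP90B1, CALR, PDIA4, DNAJB9, DNAJC3, SDF2L1, HERPUD1, EDEM1 and XBP1 encode chaperones of the endoplasmic reticulum (ER) and factors of the unfolded protein response (UPR). They were chosen by symbol, to ask whether marks of ER stress moved together with the targets of ATF4 when EHMT2 was inhibited, and they are 10 of the 26475 gene symbols of the deposited table. All 10 passed the filter on low counts in both cell lines, with 167 to 84487 counts in a library.

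RNA was sequenced in bulk from Mel92.1 and MP41, established human cell lines of uveal melanoma, a melanoma of the eye. By the study's methods, the cells were grown in RPMI medium with fetal bovine serum, at a higher percentage for MP41 than for Mel92.1. Line and serum therefore cannot be told apart where the lines are compared. The cells received the solvent DMSO or one of the inhibitors UNC0642 and A366, each at 1 μM for 48 h. There were 3 libraries per group and 18 in all. Both compounds occupy the substrate site of the histone methyltransferase EHMT2 (G9a) and of its close relative EHMT1, which place methyl groups on lysine 9 of histone H3. No group was given an agent that causes ER stress, and each line stands for 1 tumor grown in bulk culture, so that fewer cells of a kind and less RNA per cell cannot be told apart.

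Proteins that enter the secretory pathway fold in the ER with the help of HSPA5 (BiP), HSP90B1 (GRP94), calreticulin and disulfide isomerases. When unfolded proteins accumulate there, the sensors ERN1 (IRE1), EIF2AK3 (PERK) and ATF6 are released from BiP. IRE1 splices the XBP1 mRNA, cleaved ATF6 and spliced XBP1 activate chaperone and degradation genes, and PERK phosphorylates eIF2α, which raises translation of ATF4. Other kinases of eIF2α, which answer to amino acid shortage, heme or double-stranded RNA, raise ATF4 without the IRE1 and ATF6 arms. Genes such as CHAC1, ASNS and TRIB3 therefore report on ATF4 from any source, whereas HSPA5, DNAJB9, SDF2L1 and EDEM1 are used as reporters of the ER arms. HERPUD1 is used in the same way, but it is induced by ATF4 as well as by ATF6.

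A library held between 23601156 and 62941462 counts (median 41955693), and 4 ribosomal RNA genes took 3.31% to 32.8% of them, with the lowest total and the highest share both in Mel92.1 UNC0642 replicate 1. The libraries labelled A366 replicates 2 and 3 went against their labels in both lines. Over 15799 genes, Spearman's rho with each DMSO library of a line was averaged. For these 4 libraries it was 0.975 to 0.994 with the other line and 0.873 to 0.886 with the line on the label. They are therefore placed here in the line whose RNA they hold, as the study's own values per replicate place them. The A366 results are also given as labelled and without the 4 libraries. As labelled, each A366 group mixes both lines, so those values include the difference between the lines and not the response alone. In the tests below, the group called A366 in MP41 holds the libraries labelled MP41 A366 replicate 1 and Mel92.1 A366 replicates 2 and 3, and the group called A366 in Mel92.1 holds Mel92.1 A366 replicate 1 and MP41 A366 replicates 2 and 3. Values of A366 libraries are listed in these orders. Of 7 melanocyte genes, MLANA, PMEL, TYR, TYRP1, MITF and SOX10 had DMSO means of 263 to 11657 CPM (counts scaled to an equal library size) in both lines, while DCT had 329 CPM in MP41 and 1.94 CPM in Mel92.1. With A366 in MP41, 3 of these 7 genes rose and 3 fell, where 22.5% of all genes tested rose and 23.6% fell.

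The promoters of several of the 10 genes carry elements known from the ER stress response, and the stretches of the 4 genes that the comparisons below turn on are shown for that reason. Each holds 150 bases of RefSeq sequence (GRCh38.p14, 5′ to 3′ on the strand of the gene). The HSPA5 stretch ends at the RefSeq start of transcription, while those of HERPUD1, SDF2L1 and XBP1 end 94, 41 and 28 bases before it, at an earlier start in the GENCODE annotation. The HSPA5 stretch is at chr9:125241344-125241493 on the minus strand, the XBP1 stretch at chr22:28800598-28800747 on the minus strand, the HERPUD1 stretch at chr16:56931898-56932047 on the plus strand and the SDF2L1 stretch at chr22:21642111-21642260 on the plus strand. Capitals mark the fixed letters of a motif on either strand.
HSPA5: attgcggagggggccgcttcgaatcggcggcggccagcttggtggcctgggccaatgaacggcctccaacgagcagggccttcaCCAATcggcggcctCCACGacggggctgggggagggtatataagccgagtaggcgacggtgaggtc
XBP1: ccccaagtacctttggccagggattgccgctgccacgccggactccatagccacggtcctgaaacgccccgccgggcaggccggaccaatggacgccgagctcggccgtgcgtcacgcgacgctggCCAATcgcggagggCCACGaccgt
HERPUD1: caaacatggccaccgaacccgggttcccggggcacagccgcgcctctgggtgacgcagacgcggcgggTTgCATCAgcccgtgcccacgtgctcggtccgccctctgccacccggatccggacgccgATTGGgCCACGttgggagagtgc
SDF2L1: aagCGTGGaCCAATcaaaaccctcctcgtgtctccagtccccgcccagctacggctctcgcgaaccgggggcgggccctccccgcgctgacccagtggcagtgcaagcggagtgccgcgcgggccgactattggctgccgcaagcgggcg

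In HSPA5 and XBP1 the capitals mark the ER stress element, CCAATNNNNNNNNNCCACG, which is known to bind ATF6 together with NF-Y. Searched on both strands of the 300 bases around each RefSeq start, this element was found in 4 of the 10 genes (HSPA5, HSP90B1, CALR and XBP1) and in 0.0916% of 27305 genes with such windows. In HERPUD1 and SDF2L1 the capitals mark the related ERSE-II, ATTGG and CCACG with 1 base between them, which was found in those 2 of the 10 genes and in 0.0696% of genes. HERPUD1 also held the 8 bases TGATGNAA of an ATF4 composite site, read on the opposite strand, which 4.46% of genes held. CHAC1 carried the same 8 letters at its own promoter, TTGCATCA in the direction of the gene. The UPR element TGACGTGG was in none of the 10 genes and in 0.927% of all. The ATF4 letters did not overlap the ERSE-II letters in HERPUD1. These are matches of letters in 1 window per RefSeq start, and binding was not measured.

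With UNC0642 the group leaned downward in both lines, and no gene of the 10 rose past the threshold. Of all genes tested, 0.55% were called higher in Mel92.1 and 0.114% in MP41. In Mel92.1, HERPUD1, XBP1 and PDIA4 fell (3 of 10; 0.138% of the 14543 genes tested in this line were called lower), and in MP41 HERPUD1 and HSPA5 fell (2 of 10; 0.127% of 14956 genes were called lower). A366 changed none of the 10 past the threshold in Mel92.1, where 0.206% of all genes were called in either direction. In MP41, by contrast, HERPUD1, XBP1, SDF2L1, CALR and PDIA4 rose and DNAJC3 and EDEM1 fell with A366. In that comparison 22.5% of all genes were called higher and 23.6% lower. The 3 A366 libraries of MP41 also had more ribosomal RNA counts (5.93%, 8.06% and 10.96%) than those with DMSO (3.31%, 5.10% and 4.19%), with no overlap. Their mean rho with the MP41 DMSO libraries was 0.975 to 0.991, against 0.993 to 0.996 in the other 6 libraries of the line. The part of these differences in the result was not tested. In Mel92.1 the median log2 fold change of the 10 genes was -0.22 for UNC0642 and 0.0087 for A366, beside medians of -0.022 and -0.0053 over all genes tested. In MP41 it was -0.15 for UNC0642 and 0.13 for A366, beside 0.0011 and 0.020. Throughout, a gene rose, fell or was called when its p from the quasi-likelihood test of edgeR, adjusted after Benjamini and Hochberg across every gene tested, was under 0.05. The 2 inhibitors share their DMSO libraries within a line. The 3 calls with UNC0642 in Mel92.1 had nearly the same fold changes but were not past the threshold when the libraries entered as labelled or when the 4 A366 libraries were left out (adjusted p of HERPUD1 1.00 and 0.0883). The calls with UNC0642 in MP41 were lost as labelled and held without the 4 libraries.

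**Figure D1:**
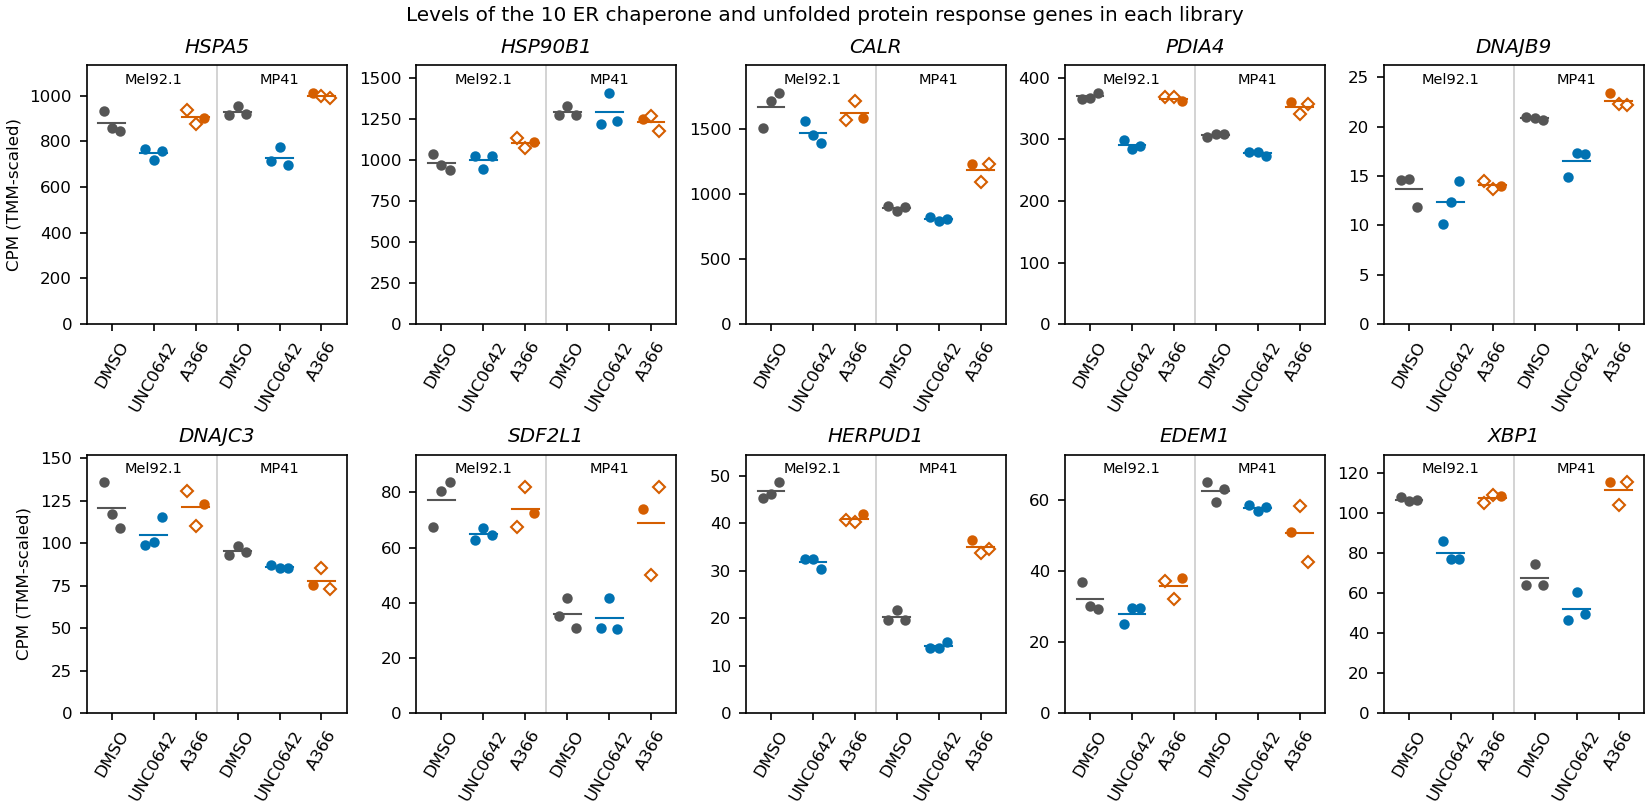
Level of each of the 10 genes in every library, as CPM scaled by TMM factors on an axis that starts at 0, with Mel92.1 to the left and MP41 to the right of each panel. Filled circles are libraries used under their label, open diamonds the 4 A366 libraries placed in the other line, and bars the mean of 3. The 3 HERPUD1 libraries with UNC0642 lie below every DMSO library in both lines, and those with A366 lie above them in MP41.

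HERPUD1 is an ER membrane protein that takes part in ER-associated degradation, and its gene is induced by both ATF6 and ATF4. With DMSO its level was 45.4, 46.2 and 48.6 CPM in the 3 Mel92.1 libraries. UNC0642 brought it to 32.4, 32.5 and 30.4 CPM, below every DMSO library (log2 fold change -0.56, SE 0.073, adjusted p = 0.00672). With A366 in Mel92.1 it was 41.9, 40.6 and 40.2 CPM, also below every DMSO library but not past the threshold (log2 fold change -0.19, SE 0.072, adjusted p = 0.889). In MP41 the level with DMSO was 19.6, 21.7 and 19.7 CPM, and UNC0642 gave 13.8, 13.8 and 15.04 CPM. This fall was of about the size seen in Mel92.1 (log2 fold change -0.52, SE 0.077, adjusted p = 0.0188). A366 in MP41 gave 36.4, 33.8 and 34.6 CPM, all above every DMSO library (log2 fold change 0.76, SE 0.076, adjusted p = 8.70e-05). HERPUD1 was the gene of the 10 with the largest fall for either line with UNC0642. Its call with UNC0642 was lost in Mel92.1 without DMSO replicate 3 (adjusted p = 0.0546), and in MP41 without any 1 of the 3 DMSO libraries, of the 3 UNC0642 libraries or MP41 A366 replicate 1 (highest adjusted p = 0.123), with the same sign throughout.

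XBP1 encodes the transcription factor that IRE1 activates by splicing its mRNA. Counts per gene do not separate the spliced from the unspliced mRNA, so they give the amount of XBP1 transcript and not its activation. In Mel92.1 it stood at 108, 106 and 107 CPM with DMSO and at 86.3, 77.0 and 77.2 CPM with UNC0642, with no overlap (log2 fold change -0.42, SE 0.065, adjusted p = 0.0168). The 3 A366 libraries of Mel92.1, at 108, 105 and 109 CPM, lay around the DMSO values. In MP41 the libraries read 63.9, 74.7 and 64.1 CPM with DMSO and 46.7, 60.4 and 49.7 CPM with UNC0642 (log2 fold change -0.37, SE 0.100, adjusted p = 0.242). These groups did not overlap, but the change did not pass the threshold. A366 brought MP41 to 115, 104 and 115 CPM, close to the level of Mel92.1 with DMSO (log2 fold change 0.70, SE 0.099, adjusted p = 4.93e-04). The call with UNC0642 in Mel92.1 was lost without any 1 DMSO library, without UNC0642 replicate 2 or 3, or without Mel92.1 A366 replicate 1 (adjusted p up to 0.103).

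HSPA5 encodes BiP, the Hsp70 of the ER and the gene most often read as a sign of ER stress. Its levels in Mel92.1 were 935, 861 and 847 CPM with DMSO and 767, 718 and 759.6 CPM with UNC0642. All UNC0642 libraries were lower, without passing the threshold (log2 fold change -0.24, SE 0.057, adjusted p = 0.137). The A366 libraries of Mel92.1, at 903, 937 and 878 CPM, overlapped the DMSO values (log2 fold change 0.041, 95% CI -0.085 to 0.17). In MP41, HSPA5 went from 917, 957 and 919.7 CPM with DMSO to 714, 775 and 696 CPM with UNC0642 (log2 fold change -0.36, SE 0.053, adjusted p = 0.0188). A366 left it at 1013, 1001 and 989.7 CPM, slightly above every DMSO library and not past the threshold (log2 fold change 0.080, 95% CI -0.035 to 0.20, adjusted p = 0.239). With GC content and transcript length as an offset it was past the threshold (0.15, adjusted p = 0.0362), as it was with limma voom (0.093, adjusted p = 0.0104), while with DESeq2 it was not (0.073, adjusted p = 0.309). The call with UNC0642 in MP41 was lost without any 1 DMSO library, without UNC0642 replicate 1 or 3, or without MP41 A366 replicate 1 (adjusted p up to 0.152).

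PDIA4 (ERp72) is a protein disulfide isomerase of the ER lumen. In Mel92.1 it fell from 366.1, 368 and 375 CPM with DMSO to 299.5, 284 and 289 CPM with UNC0642 (log2 fold change -0.35, SE 0.049, adjusted p = 0.00982). The A366 libraries read 362, 369 and 368 CPM, at the DMSO level. MP41 had 304, 309 and 309 CPM with DMSO, 279.6, 279 and 274 CPM with UNC0642 and 360.0, 341 and 357 CPM with A366. There the UNC0642 libraries were lower than all DMSO libraries without a call (log2 fold change -0.15, SE 0.051, adjusted p = 0.375), and the rise with A366 was small (0.17, SE 0.051, adjusted p = 0.0153). The call in Mel92.1 was lost without DMSO replicate 2 or 3 or UNC0642 replicate 2 (adjusted p up to 0.0678), and the one with A366 in MP41 without DMSO replicate 1 or 3 or MP41 A366 replicate 1 (up to 0.0664).

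CALR encodes calreticulin, the lectin-like chaperone that binds calcium and glycoproteins. In Mel92.1 its levels were 1507, 1712 and 1775 CPM with DMSO, 1558, 1455 and 1388 CPM with UNC0642 and 1584, 1566 and 1714 CPM with A366, and each inhibitor group overlapped the DMSO group. In MP41 the DMSO libraries had 904, 872 and 899 CPM and the UNC0642 libraries 822, 791 and 804 CPM, lower but not past the threshold (log2 fold change -0.15, SE 0.054, adjusted p = 0.418). A366 raised it to 1229, 1095 and 1231 CPM (log2 fold change 0.39, SE 0.054, adjusted p = 4.50e-04). HSP90B1 encodes GRP94, the Hsp90 of the ER. Its libraries held 1035, 969 and 938 CPM with DMSO, 1025, 942 and 1022 CPM with UNC0642 and 1108, 1132 and 1074 CPM with A366 in Mel92.1. In MP41 they held 1274, 1326 and 1276 CPM with DMSO, 1219, 1407 and 1239 CPM with UNC0642 and 1247, 1267 and 1178 CPM with A366. The log2 fold changes of HSP90B1 ran from -0.094 to 0.17 and none passed the threshold. HSP90B1 was also the one gene of the 10 with expected counts that were not whole, in 17 of 18 libraries. RSEM gives such counts per gene when a read fits transcripts of more than 1 gene.

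Among the co-chaperones, SDF2L1, a partner of BiP in the ER lumen, had the largest fold change with A366 in MP41. In Mel92.1 it had 67.6, 80.7 and 83.7 CPM with DMSO, 62.8, 67.0 and 64.6 CPM with UNC0642 and 72.7, 67.7 and 81.9 CPM with A366. In MP41 it had 35.1, 41.9 and 30.9 CPM with DMSO and 30.9, 41.9 and 30.6 CPM with UNC0642, which overlapped. A366 gave 74.1, 50.1 and 82.0 CPM, all above DMSO but widely spread (log2 fold change 0.91, SE 0.18, adjusted p = 0.00178). DNAJB9 (ERdj4) represses IRE1 and feeds clients to BiP. It read 14.6, 14.7 and 11.9 CPM with DMSO, 10.1, 12.3 and 14.5 CPM with UNC0642 and 14.0, 14.5 and 13.7 CPM with A366 in Mel92.1. In MP41 the values were 21.0, 20.9 and 20.6 CPM with DMSO, 14.9, 17.4 and 17.3 CPM with UNC0642 and 23.4, 22.3 and 22.2 CPM with A366. The UNC0642 libraries of MP41 were all below DMSO and the A366 libraries all above it, and neither change passed the threshold (log2 fold change -0.34, SE 0.081, adjusted p = 0.169, and 0.096, SE 0.080, adjusted p = 0.355). With the GC and length offset the second reached 0.19 (adjusted p = 0.0416). DNAJC3 (p58IPK) is a BiP co-chaperone that also holds back eIF2α kinases. It had 136, 117 and 109 CPM with DMSO, 99.1, 101 and 116 CPM with UNC0642 and 123, 131 and 109.9 CPM with A366 in Mel92.1, and both inhibitor groups overlapped DMSO. MP41 had 92.9, 98.2 and 94.5 CPM with DMSO, 87.3, 85.5 and 85.2 CPM with UNC0642 and 75.5, 85.5 and 72.9 CPM with A366, the last a fall past the threshold (log2 fold change -0.31, SE 0.073, adjusted p = 0.00471).

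EDEM1, which directs misfolded glycoproteins to degradation, is transcribed mainly through XBP1 in the UPR. It stood at 37.1, 30.2 and 29.3 CPM with DMSO, 25.2, 29.5 and 29.6 CPM with UNC0642 and 38.2, 37.1 and 32.2 CPM with A366 in Mel92.1, and both inhibitor groups overlapped DMSO. In MP41 it stood at 65.1, 59.4 and 63.1 CPM with DMSO, 58.7, 57.0 and 58.1 CPM with UNC0642 and 51.0, 58.4 and 42.7 CPM with A366. There EDEM1 fell with A366 (log2 fold change -0.33, SE 0.099, adjusted p = 0.0178) while the XBP1 transcript rose. This call was lost without DMSO replicate 1 or 3 or MP41 A366 replicate 1 (adjusted p up to 0.0699).

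**Figure D2:**
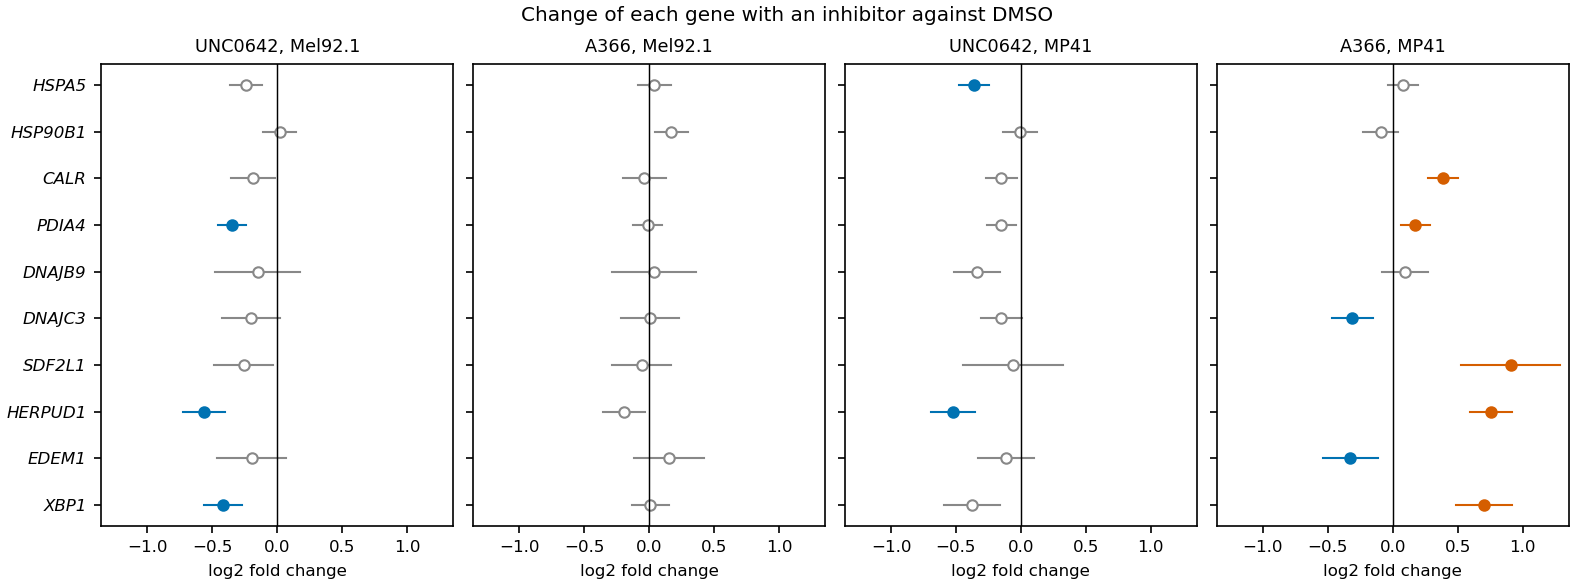
Log2 fold change of each of the 10 genes against DMSO, with the 95% confidence interval of the edgeR fit, for UNC0642 and A366 in Mel92.1 and MP41. Filled points passed an adjusted p of 0.05 (blue lower, orange higher) and open points did not. The 3 filled points of UNC0642 in Mel92.1 lie below 0, no point is filled for A366 in Mel92.1, and 5 points lie above and 2 below 0 for A366 in MP41.

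Counted by whether the 3 inhibitor libraries lay wholly outside the 3 DMSO libraries, 5 of the 10 genes were lower with UNC0642 in Mel92.1 (15.5% of all genes did not overlap in either direction) and 8 were lower in MP41 (18.8% of all genes). With A366, 1 was higher and 1 lower in Mel92.1 (15.8%), and 7 were higher and 3 lower in MP41 (58%). The UNC0642 libraries of Mel92.1 had ribosomal RNA shares of 32.8%, 10.1% and 19.5%, against 8.92%, 6.50% and 12.5% with DMSO. The part of this difference in the calls was not tested, beyond leaving out single libraries. The calls in the group did not rest on Mel92.1 UNC0642 replicate 1, which had the highest share. Without it HERPUD1 fell by 0.58, XBP1 by 0.47 and PDIA4 by 0.37 on the log2 scale, each past the threshold.

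Some of the calls with A366 in MP41 changed under an offset for the length and GC content of the transcripts. SDF2L1 has the shortest and most GC-rich of the 10 longest transcripts (865 bases, 65.55% GC), and DNAJC3 and EDEM1 have the longest (5591 and 6146 bases, 39.87% and 45.25% GC). XBP1, which rose, has 2173 bases and 41.46% GC. DNAJB9 (2715 bases, 40.44% GC) and HSP90B1 (3032 bases, 41.16% GC) were not called. When GC content and transcript length entered the fit as an offset, HERPUD1 (0.70) and XBP1 were past the threshold, SDF2L1 moved to 0.35 (adjusted p = 0.0211), HSPA5 and DNAJB9 passed it as given above, and CALR (0.081, adjusted p = 0.122), EDEM1 (-0.089, adjusted p = 0.283) and DNAJC3 (0.025, adjusted p = 0.732) were no longer past it. PDIA4 was not past it either (0.023, adjusted p = 0.699). The part of GC content and length in these changes was not tested further. With the libraries as labelled, 6 of the 10 were called for A366 in MP41, beside 4951 of 15088 genes in all. HERPUD1 was at 0.96, XBP1 at 0.71, SDF2L1 at 1.06, CALR at 0.77 and EDEM1 at -0.63, while DNAJC3 turned to 0.16 and was not called. Most libraries of this labelled group hold RNA of Mel92.1, so these values include the difference between the lines and not A366 alone. Without the 4 libraries, when MP41 A366 replicate 1 was the single library of its group and was assumed to vary like the others, 7 were called, with HERPUD1 at 0.80, XBP1 at 0.73, SDF2L1 at 1.00 and CALR at 0.42. For A366 in Mel92.1, none was called as labelled and none without the 4 libraries. The count of 0 with A366 in Mel92.1 stood beside 0.206% of all genes called in either direction. At an unadjusted p under 0.05 it was 2 (HSP90B1 higher and HERPUD1 lower), with DESeq2 0 and with limma voom and sample weights 5. Over all 14543 genes the same 3 counts were 628, 171 and 3090.

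The ATF4 branch was read from 18 genes, and CHAC1, which degrades glutathione and is among the most sensitive targets of ATF4, had the largest fold change of the list in each inhibitor comparison. In Mel92.1, its mean was 25.1 ± 3.76 CPM with DMSO (SD, n = 3), 6.29 ± 2.90 CPM with UNC0642 and 6.47 ± 0.323 CPM with A366 (log2 fold changes -1.96, SE 0.29, adjusted p = 0.0139, and -1.95, SE 0.29, adjusted p = 0.0327). In MP41, it was 15.7 ± 1.16 CPM with DMSO and 7.24 ± 0.357 CPM with UNC0642 (log2 fold change -1.12, SE 0.097, adjusted p = 5.03e-04), but 61.1 ± 6.34 CPM with A366 (log2 fold change 1.94, SE 0.092, adjusted p = 4.66e-07). The CHAC1 call with A366 in Mel92.1 was lost without any 1 library of the line other than UNC0642 replicate 1 (adjusted p = 0.0508 to 0.235), with the replicate block (0.106) and without the 4 libraries (1.00), and as labelled the value was 0.78 and not called. The call with UNC0642 in Mel92.1 was lost without DMSO replicate 2 or 3 (adjusted p = 0.0717 and 0.0858), without the 4 libraries (0.0899), with the 6 compared libraries only (0.0964) and as labelled. In MP41 neither CHAC1 call held as labelled, where the A366 value was 0.65, and both held without any single library. Of the 18 genes tested in Mel92.1, 4 fell with UNC0642 (CHAC1, DDIT4, ASNS and SESN2) and 3 fell with A366 (CHAC1, DDIT4 and SESN2), and none rose. Of the 17 tested in MP41, 2 fell with UNC0642 (CHAC1 and ASNS), and with A366 15 rose and 1 fell. Over all genes tested in Mel92.1, 0.138% were called lower with UNC0642 and 0.0344% with A366. In MP41, 0.127% of all genes were called lower with UNC0642, and with A366 22.5% were called higher and 23.6% lower. The median log2 fold changes of the list were -0.28 and -0.25 in Mel92.1 for UNC0642 and A366, and -0.21 and 0.75 in MP41. With the GC and length offset, 14 genes of the list rose and none fell for A366 in MP41, beside 2535 and 2604 of all 14956 genes. In this order of comparisons, with the libraries as labelled, the counts were 0, 0, 0 and 6, all 6 higher. Without the 4 A366 libraries they were 0 and 0 in Mel92.1, 3 lower with UNC0642 in MP41, and 15 higher and 1 lower with A366 in MP41. With single libraries left out, the counts in Mel92.1 ran from 0 to 6 with UNC0642, with 0 without DMSO replicate 2 or 3, and from 1 to 4 with A366.

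Under A366 in MP41 the stress-linked transcription factors rose as well. ATF4 went from 235 ± 4.02 to 357 ± 22.7 CPM (log2 fold change 0.58, adjusted p = 1.16e-04) and DDIT3 (CHOP), which promotes apoptosis in prolonged ER stress, from 21.2 ± 2.28 to 53.1 ± 5.10 CPM (1.30, adjusted p = 8.84e-06). ATF3 rose by 1.80, TRIB3 by 1.23, ASNS, the asparagine synthetase, by 1.19 and PPP1R15A (GADD34), which recruits the eIF2α phosphatase, by 0.82 on the log2 scale. None of these 6 genes other than ASNS passed the threshold with UNC0642 in either line or with A366 in Mel92.1. In the same libraries HERPUD1 (0.76), XBP1 (0.70), SDF2L1 (0.91), CALR (0.39) and PDIA4 (0.17) rose among the 10 ER genes and DNAJC3 (-0.31) and EDEM1 (-0.33) fell, while HSPA5 (0.080), HSP90B1 (-0.094) and DNAJB9 (0.096) did not pass the threshold. With the GC and length offset, SDF2L1 (0.35), CALR (0.081), PDIA4 (0.023), DNAJC3 (0.025) and EDEM1 (-0.089) were nearer 0, the last 4 of them not past the threshold, and HSPA5 (0.15) and DNAJB9 (0.19) passed it.

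**Figure D3:**
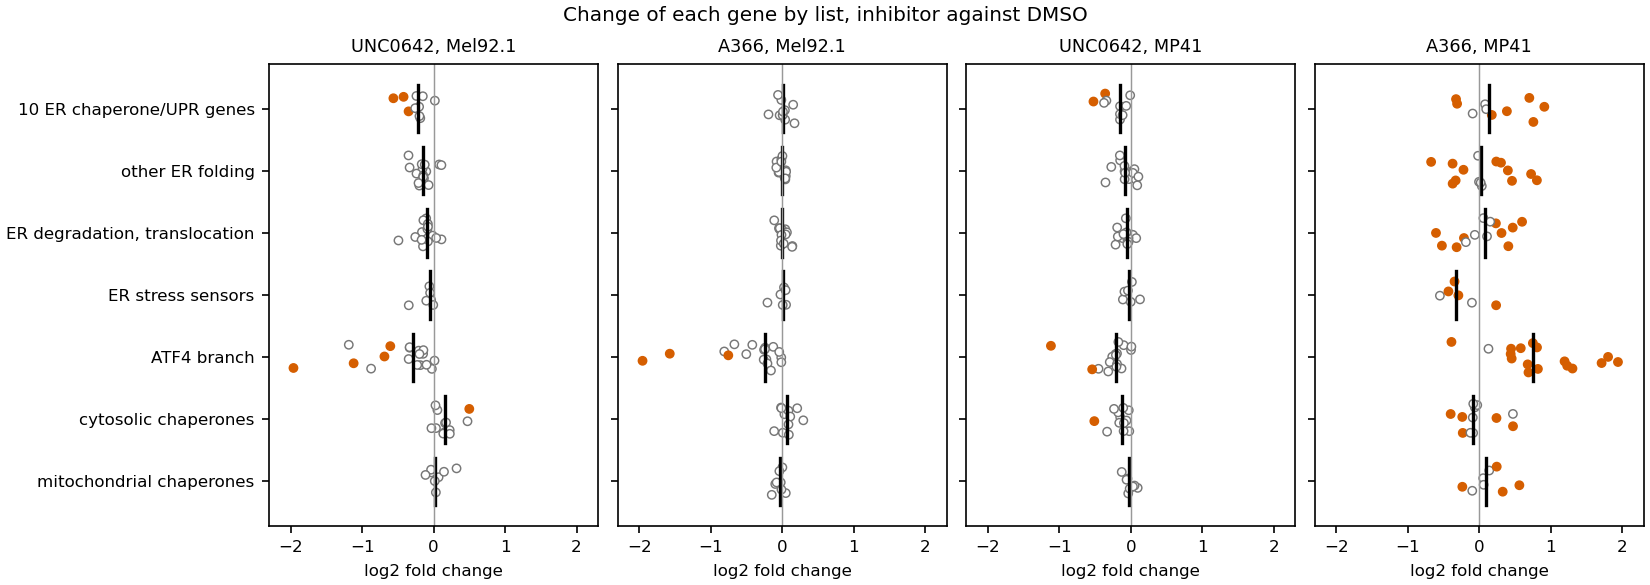
Log2 fold change against DMSO of every tested gene of 7 lists, 1 point per gene, with orange points past an adjusted p of 0.05 and a black bar at the list median. The ATF4 branch lies mostly below 0 for both inhibitors in Mel92.1 and for UNC0642 in MP41, and mostly above 0 for A366 in MP41 (median 0.75), where the other lists spread to both sides.

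The other ER lists showed no calls where the inhibitors changed few genes. Of 15 further folding factors, 14 genes of degradation and translocation and 6 sensors and their proteases, none passed the threshold with UNC0642 in either line or with A366 in Mel92.1. At an unadjusted p under 0.05 there were 7, 4 and 0 of these 35 genes for UNC0642 in Mel92.1, UNC0642 in MP41 and A366 in Mel92.1, while DESeq2 called 6, 1 and 0 and limma voom 3, 2 and 6. In the same order, the counts over all genes were 1443, 1315 and 628 at an unadjusted p under 0.05, 384, 180 and 171 by DESeq2 and 409, 154 and 3090 by voom. Among the 35 ER genes, the calls of the first 2 comparisons were all lower by either tool. The medians of the 3 lists lay between -0.15 and 0.016. HYOU1, the large ER chaperone that exchanges nucleotide on BiP, had log2 fold changes of -0.34 and -0.27 with UNC0642 in Mel92.1 and MP41 (adjusted p = 0.117 and 0.183), and MANF, a secreted BiP cofactor, of -0.14 and -0.35 (adjusted p = 0.729 and 0.247). With A366 in MP41, 6 of the 15 folding factors rose and 5 fell, where 22.5% of all genes were called higher and 23.6% lower. CRELD2, an ER disulfide isomerase, rose from 30.3 ± 2.60 to 51.0 ± 11.6 CPM (log2 fold change 0.72, adjusted p = 0.00394), MANF rose by 0.40, SIL1 by 0.81 and PPIB by 0.46, whereas ERO1A, the ER oxidase, fell by 0.67 and HYOU1 did not pass the threshold (-0.018). Of the 14 genes of degradation and translocation 5 rose and 4 fell, among them SEC61B (0.60) and OS9 (0.31) up and SEL1L (-0.61) and SSR1 (-0.32) down. Of the 6 sensors and proteases, EIF2AK3 (PERK) fell by 0.43, ATF6 by 0.29 and MBTPS2 by 0.35, ATF6B rose by 0.23, and ERN1, at 2.05 to 4.50 CPM, did not pass the threshold (-0.55, adjusted p = 0.0685). Of the 3 other eIF2α kinases, EIF2AK2 (PKR) fell by 0.51 and EIF2AK4 (GCN2) by 0.24. Under the GC and length offset 10 of the 35 ER genes rose and 4 fell in this comparison, against 12 and 12 without it. Over all 14956 genes, 2535 rose and 2604 fell with the offset, and none of the 3 kinases was called.

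HSP90AA1, the inducible cytosolic Hsp90, rose with UNC0642 in Mel92.1 from 1550.2 ± 50.2 to 2197 ± 64.0 CPM (log2 fold change 0.50, adjusted p = 0.00219), as the 1 of 12 cytosolic chaperones to pass the threshold. There 0.55% of all genes tested were called higher. In MP41 HSPA1B fell with UNC0642 by 0.51 (adjusted p = 0.0264), again 1 of 12, where 0.127% of all genes were called lower. However, HSPA1A and HSPA1B are near-identical copies between which reads cannot be assigned with certainty. With A366 in MP41, 2 cytosolic chaperones rose (HSPB1 by 0.47 and HSPA1B by 0.24) and 3 fell, among them HSPH1 by 0.40 and HSPA8 by 0.24. Over all genes, 22.5% were called higher and 23.6% lower there. With the GC and length offset none of the 12 rose and 5 fell, beside 2535 and 2604 of all 14956 genes. Among 8 mitochondrial chaperones and proteases none passed the threshold with UNC0642 in either line or with A366 in Mel92.1 (2, 0 and 0 at an unadjusted p under 0.05, 0 by DESeq2 in all 3, and by limma voom 3 lower with A366 in Mel92.1). With A366 in MP41 HSPE1 rose by 0.56, CLPP by 0.33 and LONP1 by 0.24, while HSPD1 fell by 0.24, and under the offset 1 of the 8 rose and 2 fell.

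The inhibitors were compared directly at the same dose and time, in 2 pairs of groups. In Mel92.1 all 10 genes had a positive log2 difference of A366 minus UNC0642, and XBP1 (0.43, SE 0.065, adjusted p = 0.0403) and PDIA4 (0.34, SE 0.049, adjusted p = 0.0364) passed the threshold (0.103% of all genes were called higher). HSPA5 (0.28, 95% CI 0.16 to 0.41, adjusted p = 0.133) and HERPUD1 (0.37, 95% CI 0.21 to 0.53, adjusted p = 0.124) did not. Neither call held as labelled or without the 4 libraries, and both were lost without Mel92.1 DMSO replicate 2 or 3, UNC0642 replicate 2 or 3 or any 1 of the 3 A366 libraries (adjusted p of PDIA4 up to 0.244 and of XBP1 up to 0.301). That of XBP1 was also lost without DMSO replicate 1 (adjusted p = 0.0620). In MP41, 7 of the 10 were higher with A366 (21.1% of all genes were called higher), namely HERPUD1 (1.28, SE 0.077, adjusted p = 1.81e-06), XBP1 (1.07, SE 0.100, adjusted p = 4.22e-05), SDF2L1 (0.97, SE 0.18), CALR (0.54, SE 0.054), HSPA5 (0.44, SE 0.053), DNAJB9 (0.44, SE 0.081) and PDIA4 (0.32, SE 0.051). DNAJC3 (-0.16, 95% CI -0.32 to -0.0020), EDEM1 (-0.21, 95% CI -0.43 to 0.0025) and HSP90B1 (-0.086, 95% CI -0.22 to 0.046) did not pass the threshold. With the GC and length offset DNAJC3 was positive (0.15, adjusted p = 0.0381), and SDF2L1 (0.47), CALR (0.26) and PDIA4 (0.18) were smaller and still past the threshold. As labelled, 7 were called as well, with EDEM1 (-0.52) in place of DNAJB9 (0.070), and without the 4 libraries 9 were, with DNAJC3 (-0.23) and EDEM1 (-0.22) lower besides the 7.

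The lines themselves differed with DMSO in 9 of the 10 genes, 6 higher and 3 lower in Mel92.1, where 34.5% of all 15799 genes were called higher and 34.8% lower. HERPUD1 (log2 difference of Mel92.1 minus MP41 1.201, SE 0.071), SDF2L1 (1.10, SE 0.16), CALR (0.90, SE 0.067), XBP1 (0.66, SE 0.088), DNAJC3 (0.34, SE 0.089) and PDIA4 (0.27, SE 0.044) were higher in Mel92.1. EDEM1 (-0.96, SE 0.11), DNAJB9 (-0.60, SE 0.12) and HSP90B1 (-0.40, SE 0.060) were lower, and HSPA5 did not pass the threshold (-0.080, 95% CI -0.19 to 0.034). The offset brought SDF2L1 to 0.40, still past the threshold, DNAJC3 to 0.76 and PDIA4 to 0.065, which was not past it. Per kilobase of the longest transcript, the order of levels in Mel92.1 with DMSO was CALR (875 ± 73.5 CPM per kb), HSP90B1 (323 ± 16.4), HSPA5 (225 ± 12.0), PDIA4 (127 ± 1.69), SDF2L1 (89.4 ± 9.90), XBP1 (49.2 ± 0.477), DNAJC3 (21.6 ± 2.47), HERPUD1 (15.9 ± 0.574), EDEM1 (5.24 ± 0.695) and DNAJB9 (5.05 ± 0.588), and the last 2 did not differ beyond their spread. In MP41 the order was the same down to DNAJC3, with CALR (469 ± 8.97 CPM per kb) and HSP90B1 (426 ± 9.74) at the top, and then ran EDEM1 (10.2 ± 0.470), DNAJB9 (7.68 ± 0.0627) and HERPUD1 (6.90 ± 0.390).

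Whether a response differed between the lines was tested as an interaction in 1 fit of the 18 libraries. For UNC0642 none of the 10 genes passed the threshold (0.601% of all genes did in either direction), PDIA4 alone did at an unadjusted p under 0.05 (-0.20), and DESeq2 and limma voom each called 1. The difference for HERPUD1 was -0.041 (change in Mel92.1 minus change in MP41, 95% CI -0.25 to 0.17) and for HSPA5 0.12 (95% CI -0.042 to 0.28). For A366, 5 genes responded less in Mel92.1 than in MP41 (8.66% of all genes were called lower): SDF2L1 (-0.996, SE 0.23, adjusted p = 0.0123), HERPUD1 (-0.97, SE 0.099, adjusted p = 3.34e-05), XBP1 (-0.71, SE 0.12, adjusted p = 0.00269), CALR (-0.45, SE 0.094, adjusted p = 0.00805) and PDIA4 (-0.21, SE 0.062, adjusted p = 0.0324). CHAC1 had the same sign at -3.92 (SE 0.30, adjusted p = 2.35e-06). As labelled, 8 of the 10 were called, beside 7801 of all 15799 genes, and all 5 kept their sign and call. Each labelled A366 group mixes both lines, so these values include the difference between the lines with DMSO. All 5 genes were higher in Mel92.1 with DMSO, so this sign does not bear on the A366 response. Without the 4 libraries HERPUD1 alone was called (-0.99, adjusted p = 0.0281), with XBP1 at -0.74 (adjusted p = 0.0716) and SDF2L1 at -1.13 (adjusted p = 0.0575). Under the GC and length offset the values of CALR (-0.16), SDF2L1 (-0.38) and PDIA4 (-0.057) were no longer past the threshold. The call of PDIA4 was lost without any 1 of 9 libraries, namely the 5 DMSO libraries other than Mel92.1 DMSO replicate 1 and the libraries labelled MP41 A366 replicates 1 and 2 and Mel92.1 A366 replicates 1 and 3 (adjusted p up to 0.0962).

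**Figure D4:**
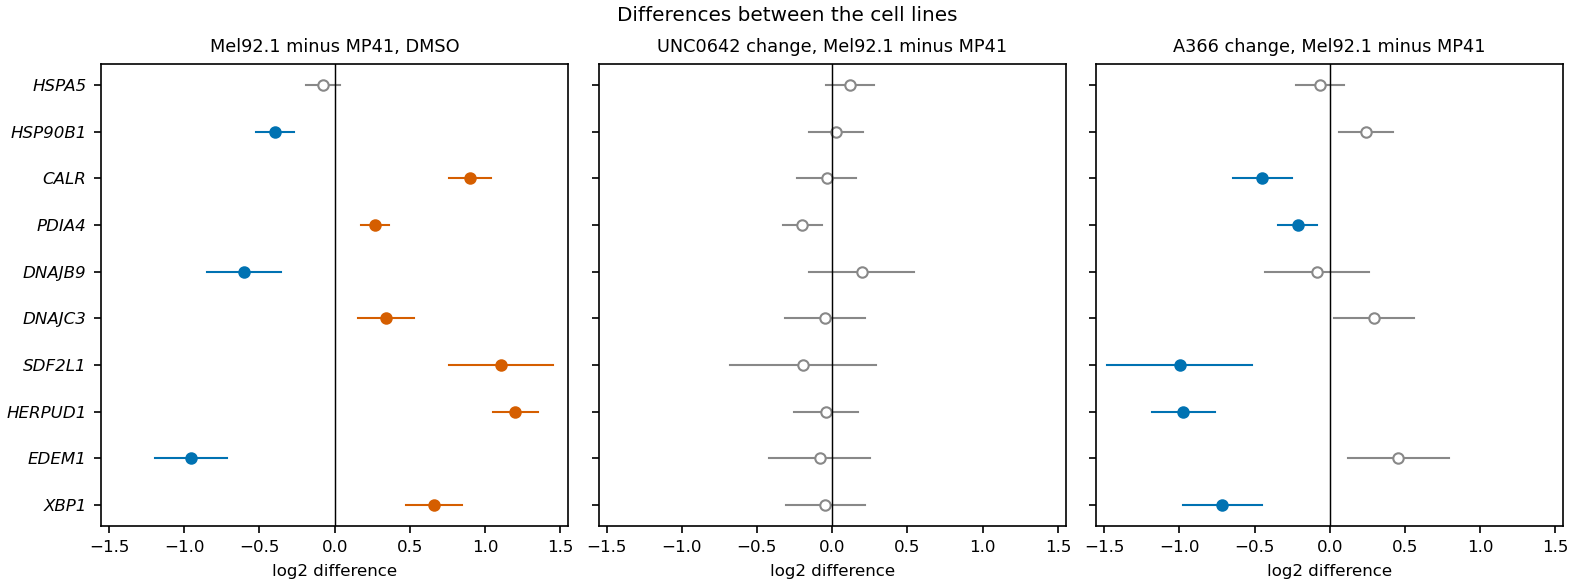
Differences between the lines for each of the 10 genes on the log2 scale with 95% confidence intervals: the DMSO level of Mel92.1 minus MP41, and the change with UNC0642 or A366 in Mel92.1 minus that in MP41. Filled points passed an adjusted p of 0.05. With DMSO 9 points are filled, for the UNC0642 change none, and for the A366 change 5, all below 0.

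After the line means were taken off, the 10 genes did not vary as 1 group over the 18 libraries. Pearson's r of each gene with the mean of the other 9 was 0.953 for HSPA5, 0.883 for PDIA4, 0.844 for XBP1, 0.794 for HERPUD1 and 0.787 for DNAJB9, then 0.608 for CALR and 0.531 for SDF2L1, and 0.111, 0.106 and 0.0755 for HSP90B1, DNAJC3 and EDEM1. Outside the gene lists, AJUBA (r = 0.965), MATN2 (0.951), RHOB (0.905) and ULK1 (0.889) were among the genes whose pattern was most like the mean of the 10, of 12971 compared. The libraries share treatment, depth and preparation, so these values describe likeness over 18 libraries and carry no test.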

How the data were processed

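RNA-seq libraries (oligo-dT selection and a stranded protocol per the labels, ribosomal depletion per the series text) were prepared from Mel92.1 and MP41 cells given DMSO, UNC0642 or A366. The authors deposited expected counts per gene symbol, one column per library. The submitters' processing notes name RSEM 1.2.15, Bowtie2 2.1.0 and hg38, whereas the methods of the study describe Bowtie2 with TopHat, a mouse build and FPKM. The annotation and the strand setting of RSEM are not given in the sources used here. Reads of HSP90B1, DNAJB9, DNAJC3, CALR and EDEM1 may include some of genes that overlap them on the other strand. No column was left unused (0), no row lacked a gene name, and 5.85% to 13.4% of values per library were not whole.

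Expected counts were rounded and tested with edgeR 4.0.16 (R 4.3.3; TMM factors, filterByExpr, glmQLFit, glmQLFTest, Benjamini-Hochberg adjustment), in one fit of 9 libraries for each line and one of 18 for differences between the lines. The common biological coefficient of variation was 0.175 in Mel92.1, 0.109 in MP41 and 0.143 in the joint fit. CPM values use TMM factors of the 18 libraries. SEs are the log2 fold change over the root of F, and intervals have a level of 95%. The 3 libraries of a group are called biological replicates by the submitters. The fits were tested on simulated data before use.

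The libraries labelled A366 replicates 2 and 3 were exchanged between the lines, after the study's own values per replicate and the correlations given above. Of genes at 20 CPM or more in one line and at most 0.05 CPM in the other (27 of Mel92.1 and 33 of MP41), these 4 libraries held the genes of the other line at 96.5% to 112% of its DMSO level and those of the labelled line at no more than 0.0677%.

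The 10 genes and the gene lists were chosen with earlier results of these data known. All 10 are named. Of each list, genes fixed as always named and up to 3 past the threshold by smallest p are named, and LONP1 was added after its values were seen. The genes of like pattern were the 5 with the highest correlation among genes at a mean of at least 1 CPM, of which 1 is not reported here. Alternatives were DESeq2 1.42.0, limma 3.58.1 voom with sample quality weights, DESeq2 size factors, other filters (none, or a mean of 1 CPM), GC content and length of transcripts as an offset (23899 symbols matched by name, 773 by synonym, 1803 not found), a replicate block, the 6 compared libraries only, other placements of the A366 libraries, and each library left out. A change of sign is counted as a reversal only where a value is past the threshold before or after it. Promoter windows hold 250 bases before and 50 after each RefSeq start. Figures were drawn with matplotlib 3.10.9.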

Additional observations from a re-analysis of the deposited data

Results flagged for a closer look

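The change with A366 differed between the lines for 5 of the 10 genes by the interaction test of edgeR over all 18 libraries, and each is given here on the log2 scale, negative where the change was lower in Mel92.1. The differences were -0.996 for SDF2L1, -0.97 for HERPUD1, -0.71 for XBP1, -0.45 for CALR and -0.21 for PDIA4. Over all 15799 genes, 8.66% were called lower. The A366 groups hold the 4 libraries that went against their labels. As labelled, each of these groups mixes both lines, and 7801 of 15799 genes were called. All 5 genes were higher in Mel92.1 with DMSO, so the labelled sign does not bear on the A366 response. As labelled, the 5 genes were called with the same sign, and without the 4 libraries HERPUD1 alone was (adjusted p = 0.0281). Under the GC and length offset CALR (-0.16), SDF2L1 (-0.38) and PDIA4 (-0.057) were not past the threshold.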

How the results depend on the processing

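Counts of the 10 genes past the threshold moved with the treatment of the doubted libraries and with the test. For UNC0642 in Mel92.1 (3 as reported) the count was 0 as labelled, 0 without the 4 A366 libraries, 0 with the 6 compared libraries only, 5 with the GC and length offset, 5 with limma voom, and 0 to 3 with single libraries left out, with 0 without Mel92.1 DMSO replicate 3. For UNC0642 in MP41 (2) it was 0 as labelled, 4 with DESeq2, 4 with voom and 0 to 2 with single libraries left out. For A366 in Mel92.1 (0) voom gave 5. For A366 in MP41 (7) the count was 4 with the offset and the replicate block together, and 5 to 7 with single libraries left out. In this comparison voom called all 10, 7 higher and 3 lower, beside 10249 of 14956 genes. DNAJC3 there reversed to 0.16 as labelled, 0.025 with the offset and 0.026 with offset and block on the log2 scale. For A366 against UNC0642 in Mel92.1 (2) the count was 0 as labelled, 0 without the 4 libraries, 0 with the 6 compared libraries, 0 with offset and block, 4 with DESeq2, 4 with the offset, 4 with voom and 0 to 2 with single libraries left out. For the line difference in the response to UNC0642 (0), DESeq2 gave 1 and voom 1. For that to A366 (5), the count was 8 as labelled, 1 without the 4 libraries, 8 with DESeq2, 8 with voom, 2 with the offset, 2 with offset and block, and 4 to 8 with single libraries left out. The causes were not tested. With fewer libraries the spread is also estimated from fewer samples. In all, 157 of these counts stayed within 1.5 times the reported one and 48 did not. Among the values of single genes and the ATF4 counts below, 774 stayed on their side of the threshold or near the reported count, 51 lost a call, 20 gained one, 32 counts moved and 3 values reversed.

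The replicate numbers did not pair the samples. Deviations of same-numbered libraries from their group means had r of -0.140 to 0.151 in Mel92.1 and -0.0586 to 0.0678 in MP41, against -0.201 to 0.261 and -0.0564 to 0.0662 for libraries of different number. With the replicate block the count fell to 0 for UNC0642 in Mel92.1, to 0 for UNC0642 in MP41 and to 0 for A366 against UNC0642 in Mel92.1, and was 4 for the line difference in the response to A366.

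Counts of the ATF4 branch under each alternative were added after seeing the data. The 4 genes called for UNC0642 in Mel92.1 became 0 without DMSO replicate 2 or 3, 7 with voom and 1 with the block. The 3 for A366 in Mel92.1 became 14 with voom, which called 3090 of 14543 genes there, and 1 without most single libraries. The 16 for A366 in MP41 became 6 as labelled.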
